A study of Mus musculus with 8 samples.

Results

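The tumor necrosis factor (TNF) superfamily was followed through subcutaneous mouse melanomas that over-expressed Colq or carried the vector alone. Its members were taken as the genes of the expression table whose symbol begins with Tnfsf or Tnfrsf and a number, together with Tnf, Lta, Ltb, Ltbr, Fas, Fasl, Cd27, Cd70, Cd40 and Cd40lg. This gave 42 of 28918 genes, of which 17 encode ligands and 24 encode receptors. The remaining symbol, Tnfsf13os, is an antisense RNA that matched by name and encodes neither. Ligands of this family are mostly membrane proteins that act as trimers, and some are shed. Their receptors recruit TRAF adaptors, which feed NF-kB and kinase signalling, and those with a death domain can also start cell death. In tumors the family is known for costimulating T cells, licensing antigen-presenting cells, keeping B cells and plasma cells alive, and killing or sparing tumor cells.

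The tumors came from B16-mhgp100, a line of the B16 melanoma that carries a gp100 antigen, grown under the skin of C57BL/6 mice. The Colq group held 3 tumors that over-expressed Colq, the gene of the collagen tail that anchors acetylcholinesterase, with 1 library each. The Vector group held 3 tumors with the empty vector and 5 libraries, because 2 of its tumors were sequenced as 2 portions each. Every mouse of both groups had been given anti-PD1, which blocks an inhibitory receptor on T cells, in 4 doses of 200 µg from day 10, so that no group here shows the tumors without that antibody. Whole tumors were homogenized, and such bulk RNA cannot tell fewer cells of a type from less RNA per cell. Labels give separate tumors but not how many clones of the over-expressing line were used. Values are TPM (a share of transcripts, scaled by transcript length and library), portions of a tumor were averaged, and each comparison set 3 Colq tumors against 3 Vector tumors.

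Colq itself measured 4.05, 5.03 and 3.86 TPM in the Colq libraries, against at most 0.24 TPM in the Vector libraries (log2 fold change 2.24, SE 0.16; limma, adjusted p = 2.8e-05). The tumors carried other differences, whose part in the results below was not tested. Melanoma markers summed to 10949 to 11272 TPM in Colq tumors, against 18217 to 22338 TPM in Vector tumors, with 6 of 7 called lower as deposited, where 59.6% of all tested genes were lower and 11.3% higher. After size factors 4 of the 7 were lower and 2 were higher. Skeletal muscle markers summed to 617 to 648 TPM in Colq tumors, against 31.6 to 73.8 TPM in Vector tumors, with 6 of 6 called higher, and keratinocyte markers spanned 35.8 to 41.3 TPM in Colq tumors, against 0.95 to 97 TPM in Vector tumors. Any pair of Colq libraries differed by a median of 0.106 to 0.111 on the log2 scale over all tested genes, less than the 0.144 and 0.219 between portions of the same Vector tumor. The median log2 fold change of the 13726 tested genes was -0.50 as deposited and -0.01 after median-of-ratios size factors, so members were read on both scales. TPM keeps no depth, and the depth behind each value is unknown.

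RefSeq promoter windows of 250 bases before the start, on GRCm38.p6, were found for 31 members, with 35 windows in all because some have several starts. They were searched on both strands for the 10-base NF-kB consensus and for TTCNNNGAA, the palindrome that STAT factors bind. The NF-kB consensus was in 4 of the 35 windows, against 7.25% of 32841 windows of all genes, and TTCNNNGAA was in 8, against 7.02%. The windows of the members called below that held either motif are printed, each 5′ to 3′ with the matches in capitals, because NF-kB and STAT factors act downstream of this family and of interferons.
Fas, chr19:34290409-34290658, plus strand: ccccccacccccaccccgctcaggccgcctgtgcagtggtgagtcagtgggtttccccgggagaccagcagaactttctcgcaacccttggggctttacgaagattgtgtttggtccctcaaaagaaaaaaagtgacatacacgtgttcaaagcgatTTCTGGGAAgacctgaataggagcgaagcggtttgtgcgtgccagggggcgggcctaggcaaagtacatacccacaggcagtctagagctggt
Ltb, chr17:35194257-35194506, plus strand: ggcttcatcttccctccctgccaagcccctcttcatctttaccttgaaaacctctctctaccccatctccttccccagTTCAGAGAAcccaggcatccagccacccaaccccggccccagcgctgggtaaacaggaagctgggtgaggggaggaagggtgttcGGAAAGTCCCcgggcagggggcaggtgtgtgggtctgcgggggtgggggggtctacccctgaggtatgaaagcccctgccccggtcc
Tnfrsf9, chr4:150927749-150927998, plus strand: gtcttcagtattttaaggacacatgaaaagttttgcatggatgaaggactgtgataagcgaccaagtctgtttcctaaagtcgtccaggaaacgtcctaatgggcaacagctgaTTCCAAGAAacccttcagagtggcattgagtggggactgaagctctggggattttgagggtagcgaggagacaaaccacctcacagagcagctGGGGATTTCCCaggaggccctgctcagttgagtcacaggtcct
Tnfrsf1a, chr6:125349473-125349722, plus strand: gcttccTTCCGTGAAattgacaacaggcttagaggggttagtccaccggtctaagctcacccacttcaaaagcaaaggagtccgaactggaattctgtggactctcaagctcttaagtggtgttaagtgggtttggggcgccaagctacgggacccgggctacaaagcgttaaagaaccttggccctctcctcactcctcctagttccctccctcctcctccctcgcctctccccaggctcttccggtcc

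The Fas window held TTCNNNGAA 93 bases before the start. The Ltb window held the NF-kB consensus 87 bases and TTCNNNGAA 172 bases before the start. In the second of its annotated windows Tnfrsf9 held the NF-kB consensus at 43 and 42 bases, which are overlapping matches, and TTCNNNGAA at 136 bases. The Tnfrsf1a window held TTCNNNGAA at 244 bases. A match describes letters only. Binding was not measured.

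Of the 42 members 27 passed a mean of 1 TPM over the 6 tumors and were tested, 7 ligands and 20 receptors. The other 15 were 10 ligands, 4 receptors and Tnfsf13os, and none of them exceeded 1.92 TPM in any library. Receptor RNA was far more abundant than ligand RNA. Receptors summed to 326, 327 and 313 TPM in Colq tumors, against 443, 427 and 318 TPM in Vector tumors. Ligands summed to 32.7, 32.4 and 32.4 TPM in Colq tumors, against 34.4, 38.5 and 28.0 TPM in Vector tumors, and thus made up 7.19% to 9.36% of all member TPM in a tumor. The 3 most abundant receptors were Tnfrsf12a, which binds the injury cytokine TWEAK, Tnfrsf1a, the death-domain receptor of TNF, and Ltbr, the lymphotoxin beta receptor. Together they made up 62.3%, 65.6% and 64.0% of member TPM in Colq tumors, against 74.2%, 69.1% and 68.9% in Vector tumors, with no overlap between the groups.

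As deposited, 6 members were higher in Colq tumors, 5 were lower and 16 were not called (limma, Benjamini-Hochberg adjusted p under 0.05 over all tested genes). The higher members were Cd40, Tnfsf13, Fas, Tnfrsf13b, Tnfrsf9 and Ltb, 22.2% of the 27, where 11.3% of all tested genes were higher. The lower members were Tnfrsf21, Ltbr, Tnfrsf1a, Tnfsf9 and Tnfrsf10b, 18.5% of the 27, where 59.6% of all tested genes were lower. The median log2 fold change of the members was 0.02, and 22 of the 27 (81.5%) lay above the all-gene median of -0.50. After size factors 10 members (37.0%) were higher, where 27.3% of all genes were, and 0 were lower, where 26.8% of all genes were, with a member median of 0.46. All 6 higher members were also higher on that scale, and Cd27, Tnfrsf18, Tnfrsf25 and Tnfsf12 joined them. None of the 5 lower members was called after size factors, and 2 and 3 members were lower with quantile normalization and after the trend with length and GC was removed. The 3 Colq tumors lay apart from the 3 Vector tumors for 13 members (48.1%), against 74.7% of all tested genes.

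**Figure D1:**
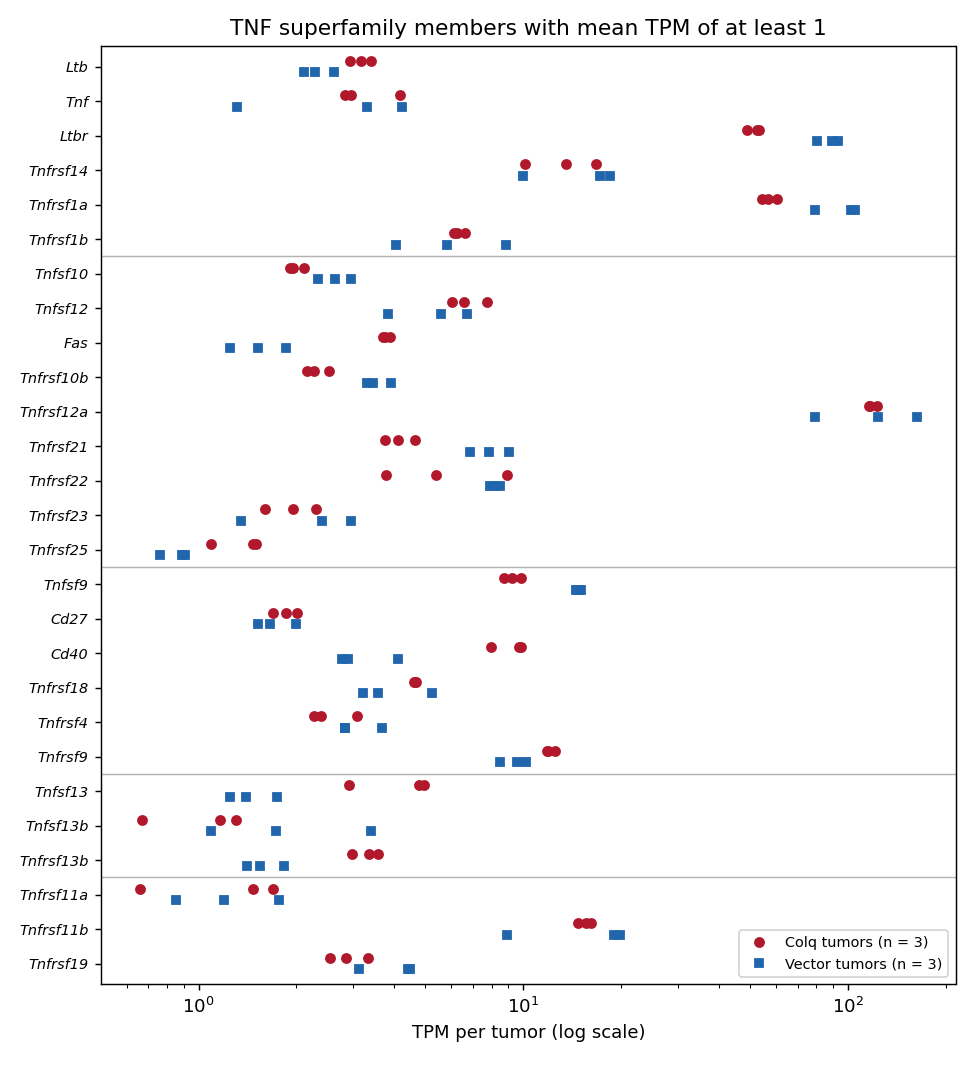
TPM per tumor on a log axis for the 27 tested members, with Colq tumors as red circles above Vector tumors as blue squares and grey lines between role groups (TNF, lymphotoxin and LIGHT; death and tissue injury; costimulation; B cell survival; RANK axis). The circles of Cd40, Fas, Tnfsf13 and Tnfrsf13b lie to the right of all their squares, those of Ltbr, Tnfrsf1a, Tnfrsf21 and Tnfsf9 to the left.

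The ligands and receptors of TNF and lymphotoxin are the inflammatory core of the family. Tnf, the founding cytokine, was at 4.18, 2.94 and 2.83 TPM in Colq tumors, against 3.31, 4.22 and 1.31 TPM in Vector tumors. The groups overlapped, with a Vector tumor both highest and lowest, and Tnf was not called (0.20, SE 0.30; limma, adjusted p = 0.58). Tnfrsf1a held 54.3, 60.6 and 56.7 TPM in the Colq libraries. The Vector libraries held 112.3 and 91.7 TPM in the portions of replicate 1, 103.7 and 105.8 TPM in those of replicate 2, and 79.1 TPM in replicate 3. Every Colq library lay below every Vector library. The mean was 57.2 ± 3.19 TPM in Colq tumors, against 95.3 ± 14.1 TPM in Vector tumors (SD, n = 3 each), a log2 fold change of -0.71 (SE 0.11; limma, adjusted p = 0.00085). After size factors it was -0.17 (adjusted p = 0.27). Quantile normalization gave -0.31 (adjusted p = 0.069). Tnfrsf1b, the second TNF receptor, which lacks a death domain and is prominent on leukocytes, averaged 6.34 ± 0.268 TPM in Colq tumors, against 6.25 ± 2.42 TPM in Vector tumors, and was not called (0.08; limma, adjusted p = 0.77).

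Ltb encodes the membrane anchor of the lymphotoxin trimer and is made mainly by lymphocytes. It measured 2.93, 3.40 and 3.16 TPM in the Colq libraries, against 2.55 and 1.68, 3.42 and 1.83, and 2.29 TPM in the Vector libraries of replicates 1, 2 and 3. Tumor means did not overlap, but the first portion of Vector replicate 2 exceeded every Colq library. Its log2 fold change of 0.33 (SE 0.13; limma, adjusted p = 0.049) just passed the threshold, and the call was lost in 11 of 18 alternative settings. Among them were first portions (0.16, adjusted p = 0.39), a tumor term for the 8 libraries (adjusted p = 0.12), no filter on low values (adjusted p = 0.077) and a replicate block (adjusted p = 0.089). The call was also lost without Colq replicate 1 (0.067), 2 (0.14) or 3 (0.11) and without Vector replicate 1 (0.092) or 3 (0.069). After size factors it was 0.74 (adjusted p = 0.0021). T cell markers, which mark a main source of Ltb, summed to 46.0 to 54.2 TPM in Colq tumors, against 19.7 to 39.6 TPM in Vector tumors. Of the 9 markers 4 (44.4%) were higher, where 11.3% of all tested genes were, and none was at 0 in all libraries. After size factors 6 of the 9 (66.7%) were higher, where 27.3% of all genes were. Cd3e (2.22 TPM, against 2.76 TPM in Vector tumors) and Cd4 (1.1 TPM, against 1.23 TPM) averaged lower in Colq tumors and were not called. The part of T cells in the rise of Ltb was not tested.

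Its receptor Ltbr, which stromal and myeloid cells carry, showed the smallest p of all members as deposited. It was at 53.3, 52.4 and 49.0 TPM in the Colq libraries. The Vector libraries held 108.5 and 70.6 TPM in replicate 1, 74.3 and 112.0 TPM in replicate 2 and 80.4 TPM in replicate 3. Portions of the same Vector tumor thus differed by up to 0.61 on the log2 scale, and still no Vector library came down to the Colq level. Ltbr averaged 51.6 ± 2.25 TPM in Colq tumors, against 87.7 ± 6.59 TPM in Vector tumors (SD, n = 3 each), with a log2 fold change of -0.73 (SE 0.07; limma, adjusted p = 8.0e-05). After size factors the difference was -0.19 (adjusted p = 0.057). Tnfrsf14, the HVEM receptor of LIGHT, overlapped between the groups at 13.5 ± 3.39 TPM in Colq tumors, against 15.3 ± 4.58 TPM in Vector tumors. The ligands Lta and Tnfsf14 (LIGHT) were untested, with at most 0.23 and 0.99 TPM in a Colq library and 0.22 and 1.23 TPM in a Vector library.

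Of 9 tested members of the death and tissue injury group, Fas was higher as deposited (11.1%, against 11.3% of all tested genes). Tnfrsf21 and Tnfrsf10b were lower (22.2%, against 59.6% of all tested genes), and 6 were not called. After size factors 3 were higher (33.3%, against 27.3% of all genes) and 0 were lower, against 26.8% of all genes. Fas, the receptor through which cytotoxic lymphocytes kill by Fas ligand, was at 3.89, 3.71 and 3.75 TPM in the Colq libraries. The Vector libraries held 1.52 and 1.51, 1.60 and 0.90, and 1.86 TPM in replicates 1, 2 and 3. The lowest Colq library stood above the highest Vector library. Fas averaged 3.78 ± 0.0945 TPM in Colq tumors, against 1.54 ± 0.306 TPM in Vector tumors (SD, n = 3 each), with a log2 fold change of 0.92 (SE 0.14; limma, adjusted p = 0.00081) and of 1.32 after size factors (adjusted p = 0.00027). Fasl, its ligand, was under the filter, at 0.86, 0.62 and 0.57 TPM in Colq tumors, against 0.875, 0.51 and 0.23 TPM in Vector tumors, and overlapped. Of 5 markers of NK and cytotoxic cells 3 were tested and all 3 were higher. Their sum was 29.2 to 35.2 TPM in Colq tumors, against 8.81 to 19.8 TPM in Vector tumors, none was at 0 in all libraries, and their part in the Fas result was not tested.

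Tnfrsf21, death receptor 6, was at 4.12, 4.65 and 3.76 TPM in the Colq libraries, against 9.31 and 6.42, 8.70 and 9.43, and 6.88 TPM in the Vector libraries of replicates 1, 2 and 3. The groups were apart in every library, and the log2 fold change of -0.78 (SE 0.13; limma, adjusted p = 0.0012) was the lowest of the tested members on that scale. It was -0.31 after size factors (adjusted p = 0.071) and -0.27 once the trend with length and GC was removed (adjusted p = 0.091). Tnfrsf10b, which in mice is the death-inducing receptor of TRAIL, averaged 2.32 ± 0.194 TPM in Colq tumors, against 3.56 ± 0.320 TPM in Vector tumors (SD, n = 3 each; -0.45, SE 0.13; limma, adjusted p = 0.015). That fall is close to the all-gene median of -0.50. It stood at -0.04 after size factors (adjusted p = 0.80) and turned to 0.13 with the length and GC trend removed (adjusted p = 0.39). The all-gene median was -0.01 after size factors and -0.08 with that trend removed. The call was also lost with first portions (adjusted p = 0.052), with quantile normalization (adjusted p = 0.14) and with the 3 Colq libraries counted as 1 sample (adjusted p = 0.12). Its ligand Tnfsf10 (TRAIL) was at 1.91, 2.11 and 1.95 TPM in Colq tumors, against 2.34, 2.94 and 2.64 TPM in Vector tumors. Tumors did not overlap, and the difference was not called (-0.27; limma, adjusted p = 0.10).

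Tnfrsf12a was the most abundant member, at 117.4, 123.1 and 116.1 TPM in the Colq libraries. Vector tumors spread widely around that level, at 163, 124 and 79.5 TPM for replicates 1, 2 and 3, and no difference was called (0.02, SE 0.23; limma, adjusted p = 0.94). Tnfsf12 (TWEAK), its ligand, was at 7.73, 6.56 and 6.04 TPM in Colq tumors, against 5.58, 6.70 and 3.84 TPM in Vector tumors. It was not called as deposited (0.31; limma, adjusted p = 0.17) and was higher after size factors (0.78, adjusted p = 0.0090). In the GRCm38 annotation 731 of the 1515 exonic bases of Tnfsf12 (48.3%) are shared with Tnfsfm13, a readthrough gene of the same strand. The division of reads between them is uncertain. Tnfrsf25, a death-domain receptor that costimulates T cells, was near the filter at 1.35 ± 0.229 TPM in Colq tumors, against 0.853 ± 0.0814 TPM in Vector tumors. Its tumors did not overlap, and size factors (0.65, adjusted p = 0.014) and removal of the length trend (0.65, adjusted p = 0.016) brought the only calls. Its ligand Tnfsf15 did not exceed 0.14 TPM in any library. The mouse TRAIL decoy receptors Tnfrsf22 and Tnfrsf23 were not called. Without Colq replicate 1 Tnfrsf22 was lower (-0.72; limma, adjusted p = 0.0084). Tnfrsf26 was under the filter, at 0.88 ± 0.231 TPM in Colq tumors, against 0.555 ± 0.0229 TPM in Vector tumors. Tnfrsf22, Tnfrsf23 and Tnfrsf26 are similar neighbours that may share reads, and their split is uncertain.

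Of 6 tested costimulatory members 2 (33.3%) were higher and 1 (16.7%) was lower as deposited. Among all tested genes 11.3% were higher and 59.6% lower. After size factors 4 of the 6 (66.7%) were higher and 0 lower, where 27.3% of all genes were higher and 26.8% lower. Cd40, which licenses dendritic cells, macrophages and B cells when T cells engage it, was at 9.83, 9.68 and 7.93 TPM in the Colq libraries. The Vector libraries held 3.00 and 2.75, 3.66 and 4.54, and 2.76 TPM in replicates 1, 2 and 3. The lowest Colq library lay well above the highest Vector library. Cd40 averaged 9.15 ± 1.06 TPM in Colq tumors, against 3.24 ± 0.743 TPM in Vector tumors (SD, n = 3 each), a TPM ratio of 2.82 and a log2 fold change of 1.27 (SE 0.15; limma, adjusted p = 0.00024), higher than 97.7% of tested genes. After size factors it was 1.74 (adjusted p = 9.6e-05). Its ligand Cd40lg, from activated T cells, did not exceed 0.35 TPM in any library of either group.

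Markers of cells that carry Cd40 gave mixed results. Dendritic cell markers summed to 12.8 to 13.7 TPM in Colq tumors, against 7.62 to 13.2 TPM in Vector tumors, with 2 of 4 tested genes higher of 6 listed. These sums overlapped. The other tested genes averaged lower in Colq tumors and were not called. They were Itgax (2.79 TPM, against 5.1 TPM in Vector tumors) and Zbtb46 (2.47 TPM, against 3.17 TPM in Vector tumors). Macrophage markers summed to 1209 to 1238 TPM in Colq tumors, against 321 to 604 TPM in Vector tumors. As deposited 1 of 7 (14.3%) was higher, where 11.3% of all tested genes were. That gene, Lyz2, alone held 865 to 873 TPM in Colq tumors, against 168 to 225 TPM in Vector tumors. After size factors 5 of the 7 macrophage markers (71.4%) were higher, where 27.3% of all genes were. The dendritic cell count stayed at 2 of 4 on that scale. Among B cell markers the only tested gene, Cd79b, was not called. Their part in the Cd40 result was not tested.

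Tnfrsf9 (CD137), an activation-induced costimulator of T cells and NK cells, was higher as deposited, and its ligand Tnfsf9 was lower. Tnfrsf9 was at 11.9, 12.5 and 11.9 TPM in the Colq libraries, against 9.82 and 9.29, 11.8 and 8.63, and 8.50 TPM in the Vector libraries of replicates 1, 2 and 3. The first portion of Vector replicate 2, at 11.79 TPM, lay just under the lowest Colq library, at 11.85 TPM. The means were 12.1 ± 0.339 TPM in Colq tumors, against 9.42 ± 0.863 TPM in Vector tumors (SD, n = 3 each; log2 fold change 0.33, SE 0.09; limma, adjusted p = 0.013). With first portions the call was lost (0.25, adjusted p = 0.11), as it was with the 3 Colq libraries counted as 1 sample (adjusted p = 0.16), and after size factors the change was 0.84 (adjusted p = 0.00032). Tnfsf9, which antigen-presenting cells and some tumor cells carry, was at 9.24, 8.75 and 9.85 TPM in the Colq libraries, against 16.1 and 14.2, 13.2 and 15.9, and 14.7 TPM in the Vector libraries. No library of one group reached the other. It averaged 9.28 ± 0.551 TPM in Colq tumors, against 14.8 ± 0.319 TPM in Vector tumors (SD, n = 3 each), with a log2 fold change of -0.62 (SE 0.08; limma, adjusted p = 0.00037). After size factors it was -0.11 (adjusted p = 0.34), and quantile normalization gave -0.05 (adjusted p = 0.69). The opposite-strand gene Gm11110 overlaps 192 of the 1290 exonic bases of Tnfsf9 (14.9%), and the libraries are unstranded.

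The other T cell costimulators were not called as deposited. Tnfrsf18 (GITR), high on regulatory T cells, was at 4.68, 4.64 and 4.62 TPM in the Colq libraries, while the portions of Vector replicate 1 held 5.01 and 1.41 TPM, the widest gap between portions of any tested member at 1.32 on the log2 scale. It was not called as deposited (0.24; limma, adjusted p = 0.27), and was higher after size factors (0.69, adjusted p = 0.012), as it was when Vector replicate 2 was left out (0.44, adjusted p = 0.031). The antisense gene Gm16008 overlaps 414 of the 1524 exonic bases of Tnfrsf18 (27.2%), and the libraries are unstranded. Cd27, a costimulator of naive and memory T cells, averaged 1.85 ± 0.160 TPM in Colq tumors, against 1.72 ± 0.241 TPM in Vector tumors, and was called after size factors alone (0.46; limma, adjusted p = 0.030). Tnfrsf4 (OX40) averaged 2.58 ± 0.439 TPM in Colq tumors, against 3.11 ± 0.476 TPM in Vector tumors, and was not called. The ligands of these receptors were scarcely present: Cd70, the ligand of Cd27, was listed at 0 in all 8 libraries, Tnfsf4 did not exceed 0.19 TPM in a Colq library and 0.20 TPM in a Vector library, and Tnfsf18 did not exceed 0.29 and 0.44 TPM. Tnfsf8 and its receptor Tnfrsf8 (CD30) did not exceed 0.39 TPM in any library.

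**Figure D2:**
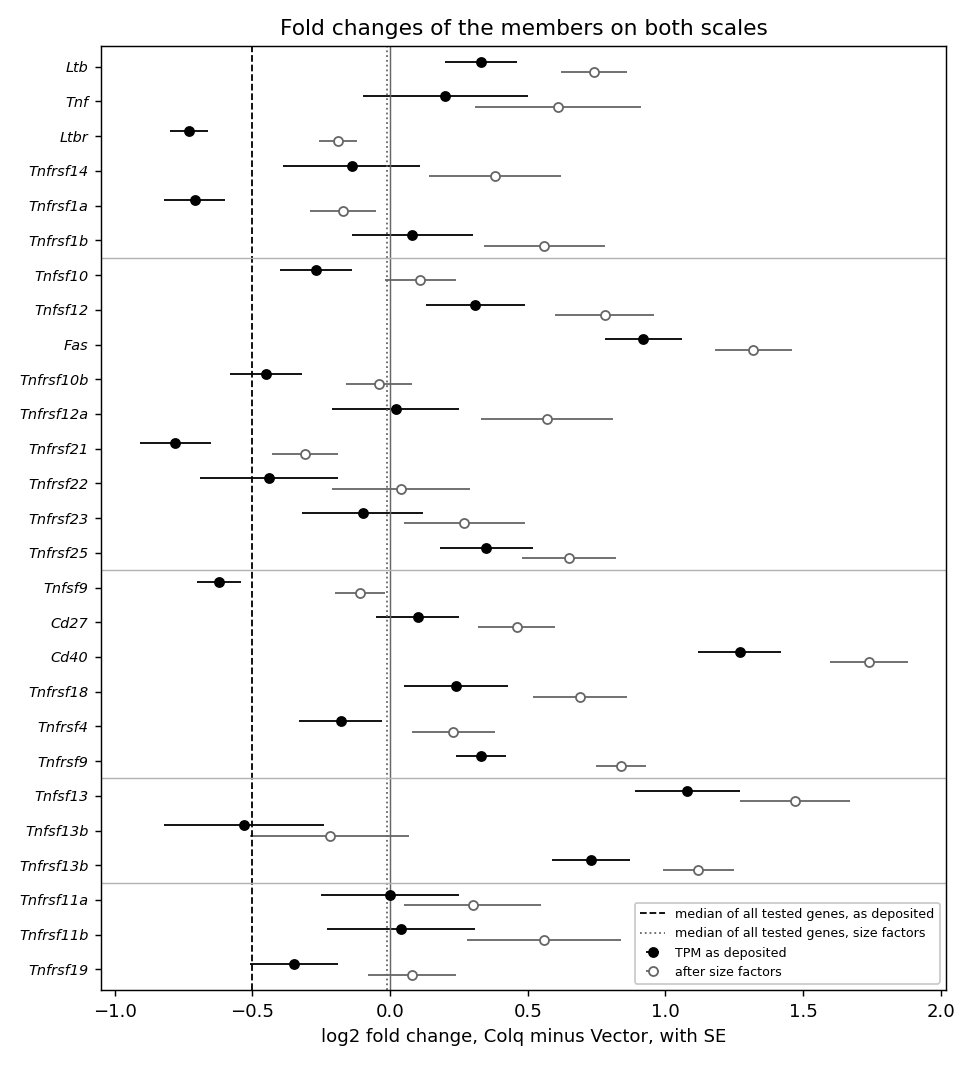
Log2 fold change (Colq minus Vector) of the 27 tested members with its SE, as deposited (black) and after size factors (open), with the all-gene medians of -0.50 (dashed) and -0.01 (dotted). The open points sit to the right of the black ones throughout, and Cd40, Tnfsf13, Fas and Tnfrsf13b lie right of 0 on both scales. Ltbr, Tnfrsf1a, Tnfrsf21 and Tnfsf9 move toward 0 after size factors but stay left of it, with Tnfrsf21 at -0.31.

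In the B cell and plasma cell survival arm 2 of 3 tested members were higher on both scales, where 11.3% of all genes were higher as deposited and 27.3% after size factors. Tnfsf13 (APRIL), a ligand that sustains plasma cells and is made largely by myeloid cells, was at 2.90, 4.94 and 4.78 TPM in the Colq libraries. The Vector libraries held 1.40 and 1.39, 2.46 and 1.02, and 1.25 TPM in replicates 1, 2 and 3. All Colq libraries exceeded all Vector libraries. Tnfsf13 averaged 4.21 ± 1.13 TPM in Colq tumors, against 1.46 ± 0.252 TPM in Vector tumors (SD, n = 3 each), with a log2 fold change of 1.08 (SE 0.19; limma, adjusted p = 0.0018) and of 1.47 after size factors (adjusted p = 0.00086). In the GRCm38 annotation 983 of its 1637 exonic bases (60.0%) are shared with Tnfsfm13, a readthrough gene of the same strand that joins Tnfsf12 and Tnfsf13, and 221 with the antisense Tnfsf13os. Tnfsfm13 averaged 3.24 ± 1.55 TPM in Colq tumors, against 3.14 ± 0.288 TPM in Vector tumors (log2 fold change -0.02) and Tnfsf13os 1.17 ± 0.653 TPM in Colq tumors, against 0.460 ± 0.223 TPM in Vector tumors. Because Tnfsfm13 shares exons on the same strand, and the libraries are unstranded, the division of reads among the 3 genes is uncertain.

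Tnfrsf13b (TACI), a receptor of APRIL and BAFF on B cells and plasma cells, was at 3.35, 3.58 and 2.97 TPM in the Colq libraries, against 1.31 and 1.50, 1.66 and 1.44, and 1.83 TPM in the Vector libraries of replicates 1, 2 and 3. The groups were apart in every library (3.30 ± 0.308 TPM in Colq tumors, against 1.59 ± 0.216 TPM in Vector tumors, SD, n = 3 each). Its log2 fold change was 0.73 (SE 0.14; limma, adjusted p = 0.0023), and 1.12 after size factors (adjusted p = 0.00044). Tnfrsf17 (BCMA), the APRIL receptor of plasma cells, was under the filter at 0.95, 0.32 and 0.37 TPM in the Colq libraries, while it was listed at 0 in all 5 Vector libraries. The authors' deposited table gave it a log2 fold change of 4.85 (adjusted p = 0.027). Tnfrsf13c, the BAFF receptor of mature B cells, was at 0.08, 0.67 and 0.14 TPM in Colq tumors, against 0.26, 0.075 and 0.09 TPM in Vector tumors, and overlapped.

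Tnfsf13b (BAFF), the B cell survival factor closest to APRIL, was at 0.67, 1.16 and 1.30 TPM in the Colq libraries, against 1.70 and 1.75, 3.70 and 3.10, and 1.09 TPM in the Vector libraries. Vector replicate 3 lay among the Colq tumors while the other Vector tumors lay above them. The log2 fold change of -0.53 was not called (SE 0.29; limma, adjusted p = 0.14), and without Vector replicate 3 it was -0.77 (adjusted p = 0.034).

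Receptor sequences assembled by the authors stood beside these genes. Heavy chain (IGH) clones numbered 66, 91 and 73 in Colq tumors, against 2, 6 and 1 in Vector tumors, and light chain (IGL) clones 148, 165 and 183 in Colq tumors, against 4, 10 and 5 in Vector tumors. T cell receptor beta (TRB) clones numbered 58, 50 and 42 in Colq tumors and 11, 13 and 7 in Vector tumors. For each of these measures the groups were apart (exact two-sided permutation test over tumors, p = 0.1, the smallest that 3 against 3 allows). With Benjamini-Hochberg adjustment over the clone measures, that permutation p was 0.13. T cell receptor alpha (TRA) clones overlapped, at 13, 23 and 28 in Colq tumors and 11.5, 25.5 and 9 in Vector tumors (exact permutation p = 0.4). Plasma cell markers summed to 91.0 to 93.1 TPM in Colq tumors, against 3.99 to 17.5 TPM in Vector tumors, with all 3 tested of 4 listed higher. The untested gene, Mzb1, was under the filter and was not higher, at 0.45 ± 0.0794 TPM in Colq tumors, against 0.597 ± 0.116 TPM in Vector tumors. The part of plasma cells in the Tnfsf13 and Tnfrsf13b results was not tested, and clone numbers carry no stated scaling to depth.

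**Figure D3:**
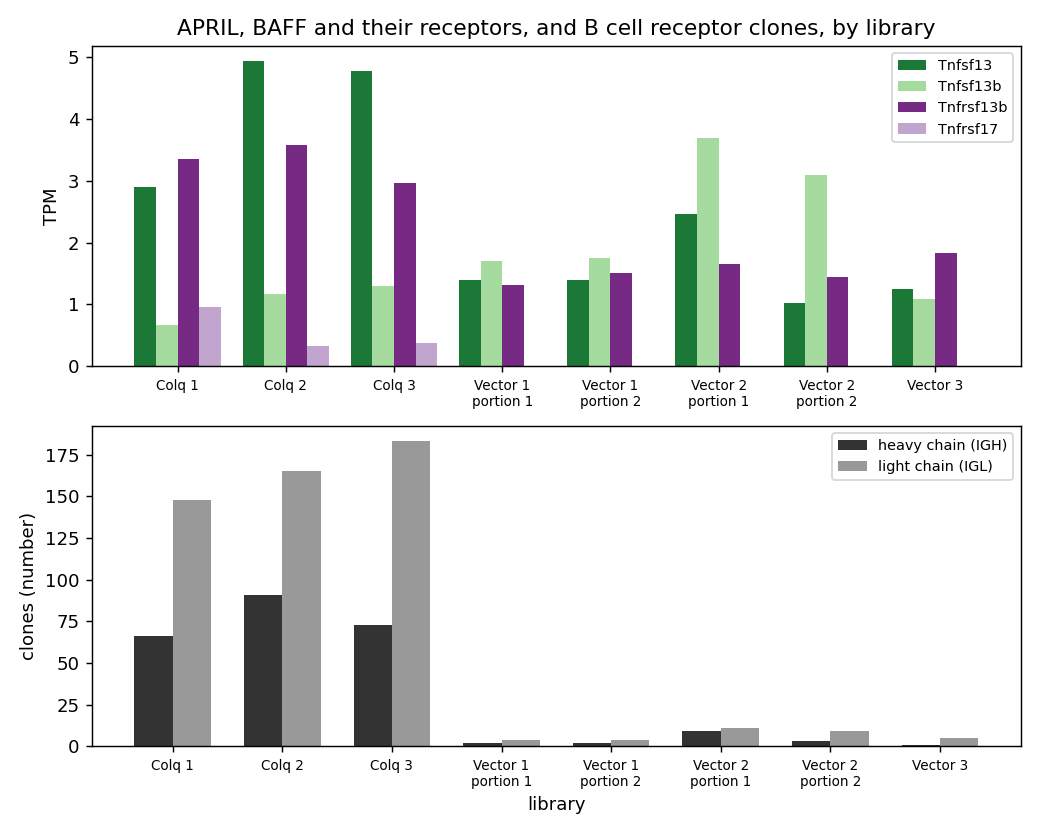
By library, TPM of Tnfsf13 (APRIL), Tnfsf13b (BAFF), Tnfrsf13b (TACI) and Tnfrsf17 (BCMA) above, and numbers of heavy and light chain clones below, with Colq libraries left of Vector libraries. Colq libraries show Tnfsf13 at 2.90 to 4.94 TPM, Tnfrsf17 above 0 and 66 to 91 heavy chain clones, against Tnfsf13 at 1.02 to 2.46 TPM, Tnfrsf17 at 0 and 1 to 9 heavy chain clones in Vector libraries.

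The RANK axis, known for bone and dendritic cell biology, gave no call. Tnfrsf11b (osteoprotegerin), the secreted decoy receptor of RANK ligand, was at 15.6, 14.8 and 16.2 TPM in Colq tumors, against 19.9, 19.0 and 8.89 TPM in Vector tumors. Its value rested on Vector replicate 3: the log2 fold change was 0.04 with all tumors (limma, adjusted p = 0.89) and -0.30 without that replicate (adjusted p = 0.012). Tnfrsf19 (TROY) averaged 2.90 ± 0.393 TPM in Colq tumors, against 4.01 ± 0.768 TPM in Vector tumors, and was not called (-0.35; limma, adjusted p = 0.085), and was lower without Vector replicate 3 (-0.48, adjusted p = 0.018) and with a tumor term for the 8 libraries (-0.41, adjusted p = 0.036). Tnfrsf11a (RANK) averaged 1.27 TPM in both groups, with an SD of 0.542 in Colq tumors, against 0.464 in Vector tumors. Its ligand Tnfsf11 did not exceed 0.34 TPM in any library.

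Ratios of a ligand to its receptor were taken within each tumor, with 0.1 TPM added to both. Of 22 known pairs 8 had both members tested. The ratio of Ltb to Ltbr was -3.99 ± 0.13 on the log2 scale in Colq tumors, against -5.18 ± 0.14 in Vector tumors (SD, n = 3 each), a difference of 1.19. That of Tnf to Tnfrsf1a was -4.09 ± 0.36 in Colq tumors, against -5.10 ± 0.63 in Vector tumors, a difference of 1.02. For both pairs the ligand gained on a far more abundant receptor, which was lower in Colq tumors as deposited. The ratio of Tnfsf9 to Tnfrsf9 went the other way, at -0.38 ± 0.12 in Colq tumors, against 0.65 ± 0.13 in Vector tumors, so that the ligand outweighed the receptor in each Vector tumor and in no Colq tumor. That of Tnfsf13b to Tnfrsf13b was -1.61 ± 0.52 in Colq tumors, against 0.22 ± 0.89 in Vector tumors. Each of these 4 ratios separated the groups (exact two-sided permutation test over tumors, p = 0.1, the smallest possible). By their own levels as deposited, 74.7% of all tested genes also separated the groups. With Benjamini-Hochberg adjustment over the 8 pairs, the permutation p was 0.2 for each of these 4 ratios. The other 4 overlapped: Tnf to Tnfrsf1b (difference 0.19, exact permutation p = 0.6), Tnfsf10 to Tnfrsf10b (0.22, p = 0.2), Tnfsf12 to Tnfrsf12a (0.34, p = 0.3) and Tnfsf13 to Tnfrsf13b (0.47, p = 0.3).

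**Figure D4:**
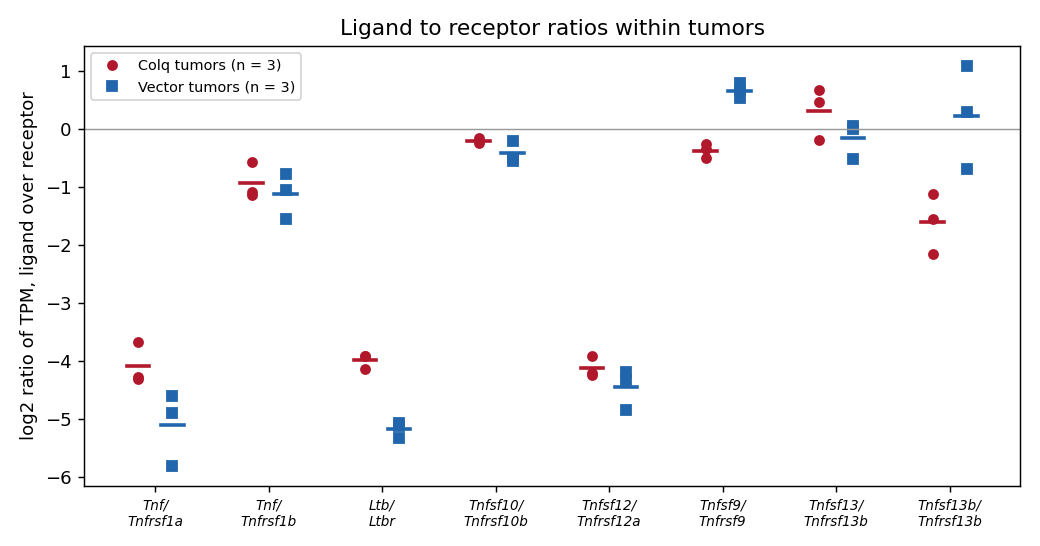
Log2 ratio of ligand TPM to receptor TPM in each tumor for the 8 pairs with both members tested, with Colq tumors as red circles left of Vector tumors as blue squares and bars at the group means. The 3 Colq tumors and 3 Vector tumors are apart for Tnf/Tnfrsf1a, Ltb/Ltbr, Tnfsf9/Tnfrsf9 and Tnfsf13b/Tnfrsf13b and overlap for the other 4 pairs.

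The genes through which these receptors signal were read from lists of 26 adaptors and death mediators and 12 NF-kB core genes, all tested. Of the 38, 28 (73.7%) were lower and 1 (2.63%) was higher in Colq tumors as deposited, where 59.6% of all tested genes were lower and 11.3% higher, and their median log2 fold change was -0.60, against -0.50 for all genes. After size factors 11 (28.9%) were lower and 7 (18.4%) higher, where 26.8% of all genes were lower and 27.3% higher, with a median of -0.07 for the 38 and -0.01 for all genes. The only higher gene, Traf1, an adaptor that NF-kB itself induces, was named after its value was seen (4.92 ± 0.468 TPM in Colq tumors, against 3.04 ± 0.878 TPM in Vector tumors; 0.57; limma, adjusted p = 0.019). It was not called without Colq replicate 2, without Colq replicate 3 or without Vector replicate 1. Traf3, the adaptor that restrains CD40 and BAFF receptor signalling to non-canonical NF-kB, was at 8.94, 9.09 and 8.69 TPM in Colq tumors, against 22.9, 21.4 and 26.4 TPM in Vector tumors. It was lower on both scales (-1.30; limma, adjusted p = 3.2e-05; -0.78 after size factors, adjusted p = 0.00049). Rela, the main activating subunit of canonical NF-kB, was at 21.2, 22.4 and 19.8 TPM in Colq tumors, against 46.7, 44.5 and 45.1 TPM in Vector tumors, and was also lower on both scales (-1.07; limma, adjusted p = 2.4e-05; -0.53 after size factors, adjusted p = 0.00070).

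Nfkb2, the precursor of the non-canonical subunit, was lower (-0.94; -0.42 after size factors; limma, adjusted p = 5.7e-05 and 0.0029). Nfkb1, the canonical counterpart, was lower at -0.85 as deposited and -0.32 after size factors. It stood at 0.02 with the length and GC trend removed (limma, adjusted p = 0.89), where the all-gene median was -0.08. The kinase gene Map3k7 (-0.70), its partner Tab2 (-0.83), the death-domain kinase gene Ripk1 (-0.76) and Chuk (-0.63), a subunit of the IkB kinase, were lower as deposited. After size factors Tab2 (-0.29, adjusted p = 0.0073) and Ripk1 (-0.25, adjusted p = 0.047) were still called, and Map3k7 (-0.18, adjusted p = 0.091) and Chuk (-0.09, adjusted p = 0.31) were not. Ripk1 was not called with quantile normalization (-0.19; limma, adjusted p = 0.11) or with the length and GC trend removed (-0.04, adjusted p = 0.71).

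Of 20 listed genes known to be induced by NF-kB, Nfkbia, Tnfaip3, Birc3, Traf1, Relb and Nfkb2 are also among the 38 signalling genes. Of the 20, 17 were tested. As deposited 4 (23.5%) were higher, where 11.3% of all genes were, and 7 (41.2%) were lower, where 59.6% of all genes were, with a median of -0.18. After size factors 9 (52.9%) were higher, where 27.3% of all genes were, and 2 (11.8%) were lower, where 26.8% of all genes were, with a median of 0.35. The neutrophil attractant Cxcl1 was at 2.82, 3.54 and 4.19 TPM in Colq tumors, against 1.64, 1.01 and 0.94 TPM in Vector tumors (1.12; limma, adjusted p = 0.00090). The other higher genes, named after their values were seen, were Cd83, an activation marker of dendritic cells (1.25), the monocyte attractant Ccl2 (1.20) and Traf1. The adhesion gene Icam1 was lower on both scales (-1.05, and -0.55 after size factors; limma, adjusted p = 0.00022 and 0.011). Ier3, an early stress gene, was lower as deposited (-0.44) and at 0.11 after size factors (adjusted p = 0.19). Endothelial markers, which mark a main source of Icam1, summed to 15.0 to 16.7 TPM in Colq tumors, against 38.5 to 53.5 TPM in Vector tumors, with 4 of 4 tested genes lower on both scales and none at 0 in all libraries. The fifth listed gene, Tek, was under the filter, at 0.88 ± 0.193 TPM in Colq tumors, against 0.552 ± 0.262 TPM in Vector tumors, and was higher in the authors' deposited table (log2 fold change 1.22, adjusted p = 0.012). Their part in the Icam1 result was not tested. Of 5 superfamily genes whose names fall outside the rule, only Relt was tested, and it was not called (0.20; limma, adjusted p = 0.33).

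**Figure D5:**
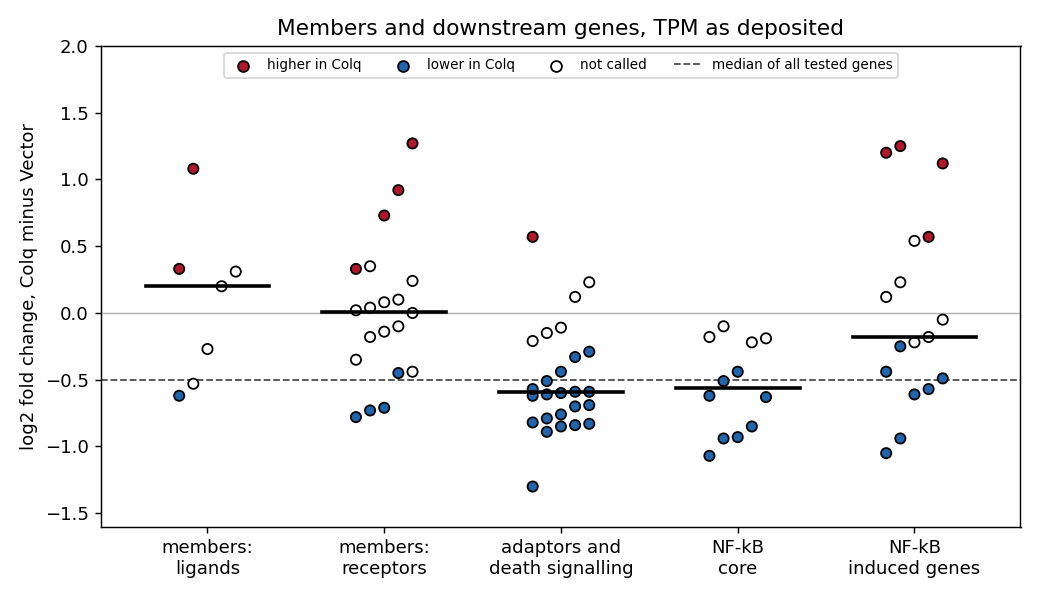
Log2 fold change (Colq minus Vector, TPM as deposited) of each tested gene among member ligands, member receptors, receptor adaptors and death signalling, NF-kB core and NF-kB induced genes, with red for higher, blue for lower, open for not called, bars at medians and a dashed line at the all-gene median of -0.50. Members centre near 0, while adaptors and the NF-kB core centre at -0.60 and -0.56. Some NF-kB induced genes also stand in the column of adaptors or of the NF-kB core.

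The authors' deposited table held 41 of the 42 members, 39 with an adjusted p. Of these members 12 were higher in the authors' deposited table (30.8% of the 39) and 0 were lower, where 20.1% of 19153 genes were higher and 20.4% lower. All 6 members called higher here were among the 12, with Cd40 at 2.05, Tnfsf13 at 2.08, Fas at 1.86, Tnfrsf13b at 1.61, Ltb at 0.99 and Tnfrsf9 at 0.91 (log2 fold changes of the authors' deposited table). The others were Tnfrsf17, Tnfrsf26, Tnfrsf18, Tnfsf12, Tnfrsf1b and Tnfrsf12a, the last at 0.50 (adjusted p = 0.034 in the authors' deposited table). The 5 members lower here as deposited had log2 fold changes between -0.38 for Tnfrsf21 and -0.07 for Tnfrsf10b in the authors' deposited table, with none called. The table rests on the same tumors and is no independent support. Which libraries entered it and how portions were treated is not stated in the sources used here.

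Portions of the same Vector tumor differed for these genes. The members' median absolute difference between portions was 0.29 in Vector replicate 1 and 0.26 in replicate 2 on the log2 scale, beside 0.14 and 0.22 over all tested genes. The sets differ in level: 12 of the 27 tested members averaged at least 5 TPM, against 10349 of the 13726 tested genes. The part of level in this difference was not tested. For 15 of the 27 tested members the larger portion difference exceeded the fold change between Colq and Vector tumors. Among them were 3 of the 11 called, Ltb, Tnfrsf9 and Tnfrsf10b. Most of the 15 were not called, and a fold near 0 is easily exceeded, as for Tnfrsf12a (0.02, with a portion difference of 0.09). The share over all tested genes was not taken, so the count says nothing particular about the members. Colq tumors were each sequenced once, so their spread within a tumor is unknown.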

How the data were processed

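The authors deposited log2(TPM + 1) values per gene and library, as the values show once the log is undone. The TPM were made with RSEM on mm39, per the submitters' processing notes, from unstranded poly-A libraries, per the labels' protocols. The aligner and annotation are not stated in the sources used here. Clone numbers are the authors' MiXCR values, per the labels. The authors' deposited comparison (DESeq2, per the submitters' processing notes) holds, per the file headers, a normalized mean signal, a log2 fold change, its error, a Wald score and p-values; its direction was read from Colq, and only the log2 fold change and adjusted p-value were used.

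Portions were averaged on the log2 scale. Genes whose TPM averaged 1 or more over 6 tumors were tested on log2(TPM + 1), a scale that understates changes of low genes, with lmFit and a trended eBayes of limma 3.58.1 (R 4.3.3), Benjamini-Hochberg adjusted over 13726 genes. The test was checked on simulated data. Size factors were medians of ratios per library. Length and GC content came from GRCm38 (96.2% of tested genes) and were removed by loess with a span of 0.5. Ratios used a pseudocount of 0.1 TPM. Other settings were pseudocounts of 0.1 and 0.5, other filters, quantile normalization, other treatments of portions, a replicate block and leaving out each tumor; counting the 3 Colq libraries as 1 sample was added after the data were seen.

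Per-tumor values were given for up to 3 tested members per role group and side by smallest p, for Tnf, Tnfsf13b and Tnfrsf13c always, and for up to 4 genes per pathway list; other members were described by mean or range, or where a library decided their value. Members and lists were chosen with earlier results of these data known. The summed level of the B cell markers is not reported here. Same-numbered tumors did not deviate together, so numbers were not used as pairs. Since TPM holds no depth, precision comes from the spread between tumors. Python 3.11.15, numpy 2.4.6, pandas 2.3.3, scipy 1.17.1 and matplotlib 3.10.9 served for the rest.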

Additional observations from a re-analysis of the deposited data

Results flagged for a closer look

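Within the 5 Vector libraries, 2 of the 27 tested members had a library far from the others by Dixon's ratio of gap to range, whose critical value is 0.71 for 5 libraries. Chance alone gives about 1 such group in 20, and portions of the same tumor are not independent libraries. Tnfrsf11b was at 8.89 TPM in Vector replicate 3 and between 17.81 and 22.05 TPM in the other 4 (ratio 0.76). Tnfrsf4 was at 5.03 TPM in the first portion of Vector replicate 2 and between 2.28 and 2.86 TPM in the other 4 (ratio 0.73). The Colq group has 3 libraries and was not examined in this way.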

How the results depend on the processing

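Cd40, Fas, Tnfrsf13b and Tnfsf13 kept their direction and call in every one of the 19 alternative settings that could give them a value, and the other 7 called members lost their call in at least 1. Members higher, 6 as reported, numbered 10 after size factors and 5 to 7 when single tumors were left out. They numbered 2 at a mean TPM of at least 5, where only 12 members were tested and 1170 of 10349 genes were higher. That filter left Tnfsf13, Fas, Ltb and Tnfrsf13b untested. Members lower, 5 as reported, numbered 0 after size factors, 2 with quantile normalization, 3 once the length and GC trend was removed, and 5 to 8 when single tumors were left out, with 8 without Vector replicate 3. Signalling genes higher, 1 as reported, numbered 7 with size factors, quantile normalization or removal of the length and GC trend. They numbered 0 with first portions, with no filter and at a mean TPM of at least 5, and 0 to 1 without single tumors. Traf1, at a mean of 3.98 TPM, was left untested by the filter of 5 TPM. Signalling genes lower, 28 as reported, numbered 11 after size factors and with quantile normalization and 9 with the length and GC trend removed. The sign changed, with a call on one side, in 4 values: Tnfrsf10b (0.13) and Nfkb1 (0.02) with the length and GC trend removed, Ier3 (0.11) after size factors and Tnfrsf11b without Vector replicate 3 (its values without single tumors ran from -0.30 to 0.23). The cause was not tested. Size factors and quantile normalization recentre all genes by construction, and removal of the length and GC trend recentred them too. As deposited 1556 genes were higher and 8181 lower, against 3742 and 3675 after size factors. Quantile normalization gave 3150 and 4243, and removal of the trend 2587 and 3652. The all-gene median was -0.50 as deposited and -0.08 with the trend removed. With the Colq libraries as 1 sample, 4 members were higher and 4 lower, from fewer samples, and 788 of all genes were higher. With replicate number as a block 5 members were higher and 5 lower, Ltb losing its call; same-numbered tumors correlated at 0.03, 0.007 and 0.044, so the numbers do not pair them. Members under a mean of 1 TPM were left untested by the chosen filter.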
